A study of Mus musculus with 4 samples.

Results

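The macrophage and leukocyte genes described here are 32 genes, picked by symbol from the 22322 genes in the deposited tables, that mark macrophages and other white blood cells. They were measured by RNA sequencing in cardiomyocyte preparations from male mice that had undergone transverse aortic constriction (TAC) or a sham operation. TAC narrows the aorta and so loads the left ventricle with pressure. In the methods, mice were operated on at 2 months of age and examined by echocardiography 14 weeks later. The same text also calls the mice 14 weeks old at heart isolation, so their age then is uncertain. The hearts were taken apart with a Langendorff perfusion system, and each library used part of the cardiomyocytes of 1 heart. The 2 sham libraries (sham 1 and sham 2) and the 2 TAC libraries (TAC 1 and TAC 2) carried no other allele or agent in their labels, and the sources used here do not give the strain. The comparison is TAC against sham, in preparations meant to hold heart muscle cells, and values are given in the order sham 1, sham 2, TAC 1, TAC 2.

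The heart holds resident macrophages, many of them settled there before birth, which take up dead cells and debris and which are kept alive by the cytokine CSF1 acting on its receptor. Monocytes entering from blood through the chemokine receptor CCR2 can add to them under stress, while lymphocytes and granulocytes are normally sparse in heart muscle. Macrophage identity depends on the ETS-family transcription factor PU.1, encoded by Spi1, which binds purine-rich DNA with a GGAA core.

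Upstream sequences are shown for the only member called between groups by the quasi-likelihood test of edgeR (Trem2), for the member with the second lowest adjusted p (Mrc1) and for a member with the longer form of the PU.1 type motif (Pf4). RefSeq promoter windows on GRCm38.p6, 250 bases before to 50 bases after the start site, were found by symbol for 25 of the 32 genes. The letters GAGGAA, read on either strand (TTCCTC on the printed strand when reversed), occurred in at least 1 window of 15 of these 25 genes (60.0%) and of 31.3% of 27025 genes, some of which have several windows. The longer GAGGAAGT, which contains the shorter motif, occurred in 4 of the 25 genes (16.0%), Ctss, F13a1, Pf4 and S100a8, and in 3.69% of all genes. These shares of genes describe letters in a window, and both motifs were chosen after the gene values had been seen. The 250 bases upstream of each start are printed 5′ to 3′, all on the plus strand, with matches to the shorter motif in capitals. Trem2 lies at chr17:48346151-48346400, Mrc1 at chr2:14229164-14229413 and Pf4 at chr5:90772185-90772434.
Trem2: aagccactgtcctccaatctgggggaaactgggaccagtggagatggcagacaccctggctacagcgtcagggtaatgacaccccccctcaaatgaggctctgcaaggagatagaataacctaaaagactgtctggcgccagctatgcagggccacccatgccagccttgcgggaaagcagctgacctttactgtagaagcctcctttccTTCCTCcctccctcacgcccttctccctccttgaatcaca
Mrc1: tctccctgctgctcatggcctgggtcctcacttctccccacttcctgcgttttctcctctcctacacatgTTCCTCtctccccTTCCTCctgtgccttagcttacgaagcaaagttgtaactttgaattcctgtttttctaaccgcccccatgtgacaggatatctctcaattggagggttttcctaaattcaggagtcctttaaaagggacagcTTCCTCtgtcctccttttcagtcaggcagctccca
Pf4: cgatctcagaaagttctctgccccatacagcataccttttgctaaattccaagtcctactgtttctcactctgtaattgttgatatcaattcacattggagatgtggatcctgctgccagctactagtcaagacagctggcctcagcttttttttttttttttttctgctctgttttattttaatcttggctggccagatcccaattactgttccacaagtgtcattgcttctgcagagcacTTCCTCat
Trem2 had 1 match, 34 bases before its start. Mrc1 had 3, at 174, 161 and 29 bases before the start. The match in Pf4, 2 bases before the start, was part of the longer motif, which reads ACTTCCTC on this strand.

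Libraries held 24237777 to 32118323 counts. The preparations carried heart muscle RNA, as 15 cardiomyocyte genes such as Myh6 summed to 85900 to 95300 CPM (counts scaled to a common library size with TMM factors), with no order between the groups. All 32 members together summed to 5754 and 2671 counts in the sham libraries and 1386 and 2248 in the TAC libraries. As CPM of the whole total, without TMM, this was 199, 96.5, 43.2 and 92.8, so the members were trace signals in every library. Of all counts in TAC 1, 47.4% fell on 13 mitochondrial genes coding for proteins, against 39.8% to 40.8% elsewhere. The part of this difference in the low member counts of TAC 1 was not tested.

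On the CPM scale the members summed to 182 and 92.8 in the sham libraries and 49.7 and 91.9 in the TAC libraries, and the TAC mean was 0.516 times the sham mean. Sham 1 stood highest and TAC 1 lowest, while sham 2 and TAC 2 were nearly level. Defining macrophage genes (Csf1r, Adgre1, Cd68) had counts in every library, whereas the T cell gene Cd3e and the neutrophil genes S100a8 and S100a9 had 0 to 4. The B cell gene Cd79a had 10, 13, 6 and 9 counts, a number like that of the least counted macrophage genes such as Aif1 (12, 5, 4 and 7). In a bulk sample, fewer cells of a type and less RNA per cell cannot be told apart. A filter on low counts, which asked for about 10 counts at the median library size in at least 2 libraries, left 27 members to test, and all 27 had a log2 fold change below 0. Timd4, Aif1, Cd3e, S100a8 and S100a9 did not pass, and Trem2 passed through the sham libraries alone. The median log2 fold change was −0.90 over the 27, against −0.01 over all 12499 tested genes.

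Of the 27, 1 gene (Trem2) was called lower in TAC (edgeR quasi-likelihood test with Benjamini-Hochberg adjustment, adjusted p under 0.05), where 2.43% of all tested genes were called lower. None was called higher, against 2.58% of all tested genes; no member was higher at an unadjusted p under 0.05 either, and none was called higher by DESeq2. At an unadjusted p under 0.05, 11 members were lower, against 14.0% of all tested genes. Both TAC libraries lay below both sham libraries for 13 members, against 30.3% of all tested genes, and the groups overlapped for the other 14. With 2 libraries per group, an exact permutation test on a single value cannot go below p = 0.333, so each p below rests on a spread that edgeR or, where named, DESeq2 estimates with information shared over genes.

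**Figure D1:**
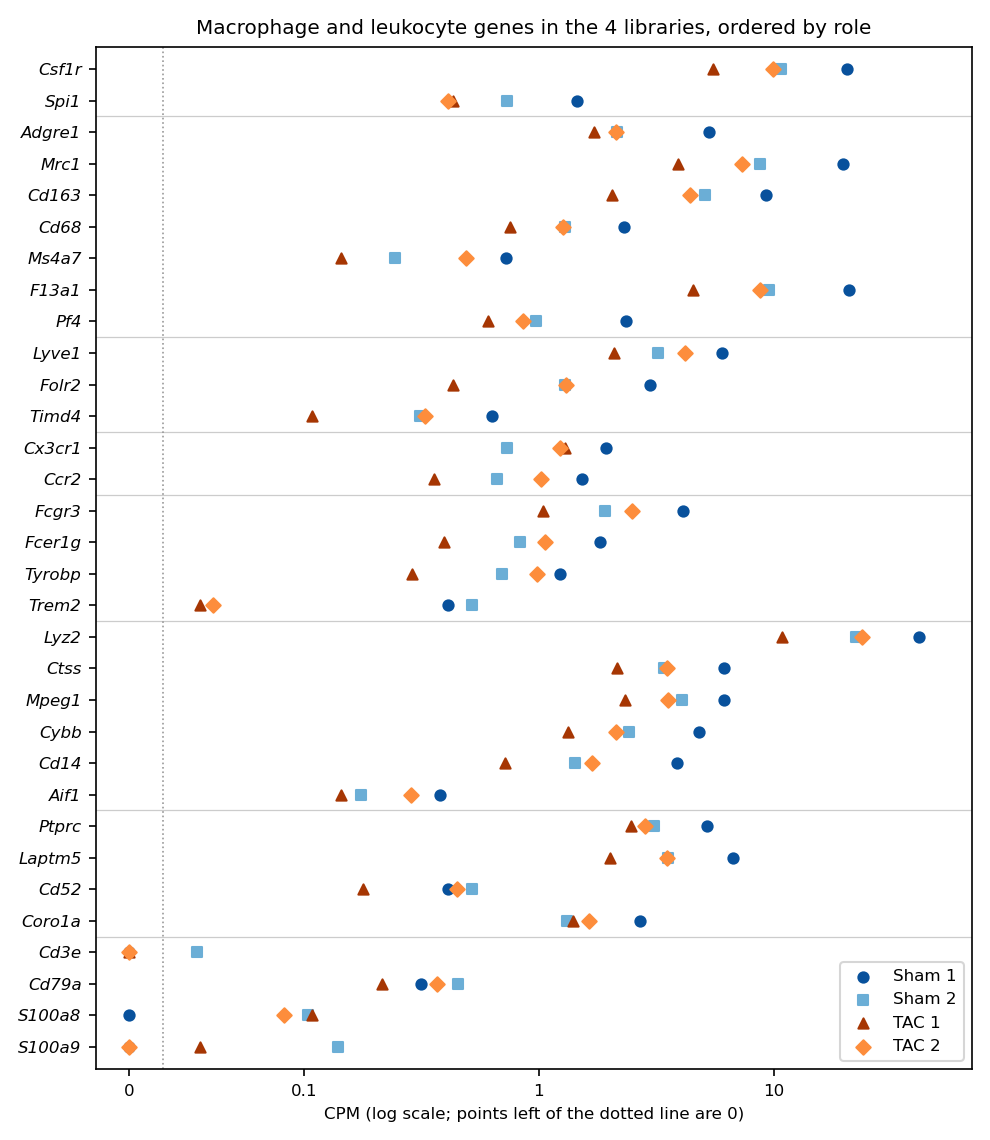
CPM of the 32 members on a log axis, grouped by role between grey lines, with 1 point per library and zeros drawn left of the dotted line. Sham 1 was the highest library for 24 of the 27 tested members and TAC 1 the lowest for 24, with sham 2 and TAC 2 between them.

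Csf1r, the receptor for CSF1 on which macrophage survival depends, was measured at 20.5 and 10.7 CPM in the sham libraries and 5.52 and 9.94 in the TAC libraries. Both TAC values lay below both sham values, though the gap between sham 2 and TAC 2 was small beside that within either group. Its log2 fold change was −1.02 ± 0.35 (SE, n = 2 per group; edgeR quasi-likelihood test, Benjamini-Hochberg adjusted p = 0.115). Spi1, the PU.1 gene, stood at 1.45, 0.73, 0.43 and 0.409 CPM in the same order of libraries. Here the TAC libraries were level with each other and below both sham libraries (log2 fold change −1.38 ± 0.49, edgeR adjusted p = 0.128). Neither gene of this pair was called by the quasi-likelihood test, and both were lower at an unadjusted p under 0.05 (14.0% of all tested genes). The exact test of edgeR called Csf1r (adjusted p = 0.0421), and DESeq2 did not (adjusted p = 0.342). By the quasi-likelihood test its adjusted p was 0.112 with a replicate block. With a crossed block, which was chosen after seeing the data, it was 0.00234. DESeq2 gave Spi1 no adjusted p. Deposited counts of Csf1r were fractional in 3 libraries (648.33, 153.79 and 243.32 in sham 1, TAC 1 and TAC 2), so how fragments were assigned to it is uncertain.

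Of 7 identity and scavenger receptor genes, all tested, 0 were called by the quasi-likelihood test, while DESeq2 called Cd163 and the exact test of edgeR called Cd163, F13a1 and Mrc1. At an unadjusted p under 0.05, 4 were lower (14.0% of all tested genes), and 6 had both TAC libraries below both sham libraries (30.3% of all tested genes). The median log2 fold change of the 7 was −1.17, and in every one of them sham 1 was highest and TAC 1 lowest. Mrc1 (chr2:14229392-14332057 on GRCm38), which encodes the mannose receptor CD206 of tissue macrophages, read 19.8 and 8.76 CPM in the sham libraries and 3.91 and 7.32 in the TAC libraries. Sham 1 held more than the other libraries, and the TAC values stood below both sham values. Its log2 fold change of −1.36 ± 0.41 had the second lowest adjusted p among the members (edgeR, adjusted p = 0.0912).

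F13a1 encodes the A subunit of coagulation factor XIII, which resident cardiac macrophages express. Its levels were 21 and 9.52 CPM in the sham libraries and 4.52 and 8.71 in the TAC libraries (log2 fold change −1.22 ± 0.40, edgeR adjusted p = 0.109). Cd163, the haemoglobin-haptoglobin scavenger receptor, gave 9.26, 5.11, 2.04 and 4.42 CPM (log2 fold change −1.17 ± 0.39, edgeR adjusted p = 0.112). In both genes sham 2 and TAC 2 were close, and the difference between group means was carried by sham 1 and TAC 1.

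Adgre1, the F4/80 antigen by which mouse macrophages are commonly identified, read 5.28 CPM in sham 1 and 2.15, 1.72 and 2.13 in sham 2, TAC 1 and TAC 2. Sham 1 alone stood apart, and the log2 fold change of −0.96 ± 0.42 was not called (edgeR adjusted p = 0.187). Cd68, a lysosomal glycoprotein of phagocytes, was at 2.31, 1.29, 0.753 and 1.27 CPM. Pf4, a chemokine made by platelets and by some tissue macrophages, was at 2.34, 0.973, 0.61 and 0.859 CPM. Ms4a7, a membrane protein gene of macrophages, was the only gene of the 7 whose groups overlapped, at 0.727, 0.243, 0.143 and 0.491 CPM.

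Platelet RNA bears on Pf4, and 9 other platelet genes were counted beside it. Gp9 and Treml1, named after their values were seen, had no count in any library, and only Gp1ba passed the filter, at 1.07 and 1.53 CPM in the sham libraries and 1.04 and 1.27 in the TAC libraries. The 9 genes summed to 1.33 to 1.81 CPM per library, with sham 2 the highest. Most of that sum was Gp1ba. Itga2b, at 0.221, 0.104, 0.108 and 0.164 CPM, was highest in sham 1 as Pf4 was. Ppbp, at 0.0316, 0.0695, 0.108 and 0.164 CPM, and Gp1bb, at 0.0316, 0.0695, 0.0717 and 0.0818 CPM, were lowest there. Counts were 7, 3, 3 and 4 for Itga2b, 1, 2, 3 and 4 for Ppbp and 1.42 to 2.33 for Gp1bb, so these orders rest on very few fragments. The part of platelet RNA in the Pf4 values was not tested.

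Lyve1, Folr2 and Timd4 mark long-lived resident macrophages. Lyve1, a hyaluronan receptor also made by lymphatic endothelium, was at 6 and 3.23 CPM in the sham libraries and 2.08 and 4.21 in the TAC libraries. TAC 2 exceeded sham 2, so the groups overlapped (log2 fold change −0.57 ± 0.39, edgeR adjusted p = 0.376). Folr2, the folate receptor beta gene, was at 2.97, 1.29, 0.43 and 1.31 CPM, with sham 2 and TAC 2 nearly equal (log2 fold change −1.32 ± 0.58, edgeR adjusted p = 0.189). Timd4, a phosphatidylserine receptor for taking up dying cells, had 20 and 9 counts in the sham libraries and 3 and 8 in the TAC libraries and was not tested.

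Cx3cr1, the fractalkine receptor of monocytes and of some macrophages, departed from the common order. It read 1.93 and 0.73 CPM in the sham libraries and 1.29 and 1.23 in the TAC libraries, and the TAC libraries lay between the sham libraries. Its log2 fold change of −0.09 ± 0.47 was the smallest in size among the tested members (edgeR adjusted p = 0.924), and it was above 0 with a replicate block (0.03), with a crossed block (0.01) and without sham 1 (0.78). As a share of all member counts Cx3cr1 took 1.06% in sham 1, 0.786% in sham 2 and 1.33% in TAC 2, and 2.6% in TAC 1 (95% Wilson interval 1.88% to 3.57%, counting error only). Ccr2, the receptor for CCL2 that guides monocytes, was at 1.52, 0.66, 0.359 and 1.02 CPM (log2 fold change −0.68, edgeR adjusted p = 0.485). The groups overlapped, and without sham 1 its log2 fold change was 0.04. Counts of Ccr2 were not whole in TAC 1 (10.5).

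Among the genes of Fc receptor and ITAM signalling, Trem2 gave the only difference called among the members by the quasi-likelihood test. TREM2 is a lipid-sensing receptor of macrophages that signals through the adaptor encoded by Tyrobp. Trem2 (chr17:48346401-48354147) had 13 and 15 counts in the sham libraries and 1 and 1 in the TAC libraries. These are 0.411, 0.521, 0.0359 and 0.0409 CPM, against 0.0948 to 0.123 CPM for 3 counts, so both TAC values were below that floor and both sham values above it. Unlike most members, Trem2 was not highest in sham 1, and the libraries of each group were close to each other.

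The pooled ratio of sham to TAC for Trem2 was 12.1, with a 95% counting interval of 4.08 to 140, from 28 sham and 2 TAC counts. On the log2 scale the fold change was −3.46 ± 0.77 (edgeR quasi-likelihood test, Benjamini-Hochberg adjusted p = 0.0495). A gene that passes the low-count filter through the sham libraries alone, as Trem2 did, had to be higher in sham. The adjusted p ran from 0.00145 to 0.231 over the alternatives. It was 0.0985 with a replicate block. Leaving out 1 sham library gave 0.105 (sham 1) or 0.122 (sham 2), and leaving out 1 TAC library gave 0.231 (TAC 1) or 0.103 (TAC 2), so the call was lost when any 1 library was left out. DESeq2 gave Trem2 no adjusted p, and the single member it called was Cd163.

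Tyrobp, the gene of that adaptor, was at 1.23 and 0.695 CPM in the sham libraries and 0.287 and 0.982 in the TAC libraries, and TAC 2 exceeded sham 2 (log2 fold change −0.63, edgeR adjusted p = 0.521). The difference between the responses of Trem2 and Tyrobp was not tested. Fcer1g, the common gamma chain of Fc receptors, read 1.83, 0.834, 0.395 and 1.06 CPM (edgeR adjusted p = 0.342). Fcgr3, which binds antibody complexes, read 4.11, 1.91, 1.04 and 2.49 CPM (edgeR adjusted p = 0.328). TAC 2 also exceeded sham 2 in these 2 genes, and in all 4 genes of this role TAC 1 was the lowest.

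**Figure D2:**
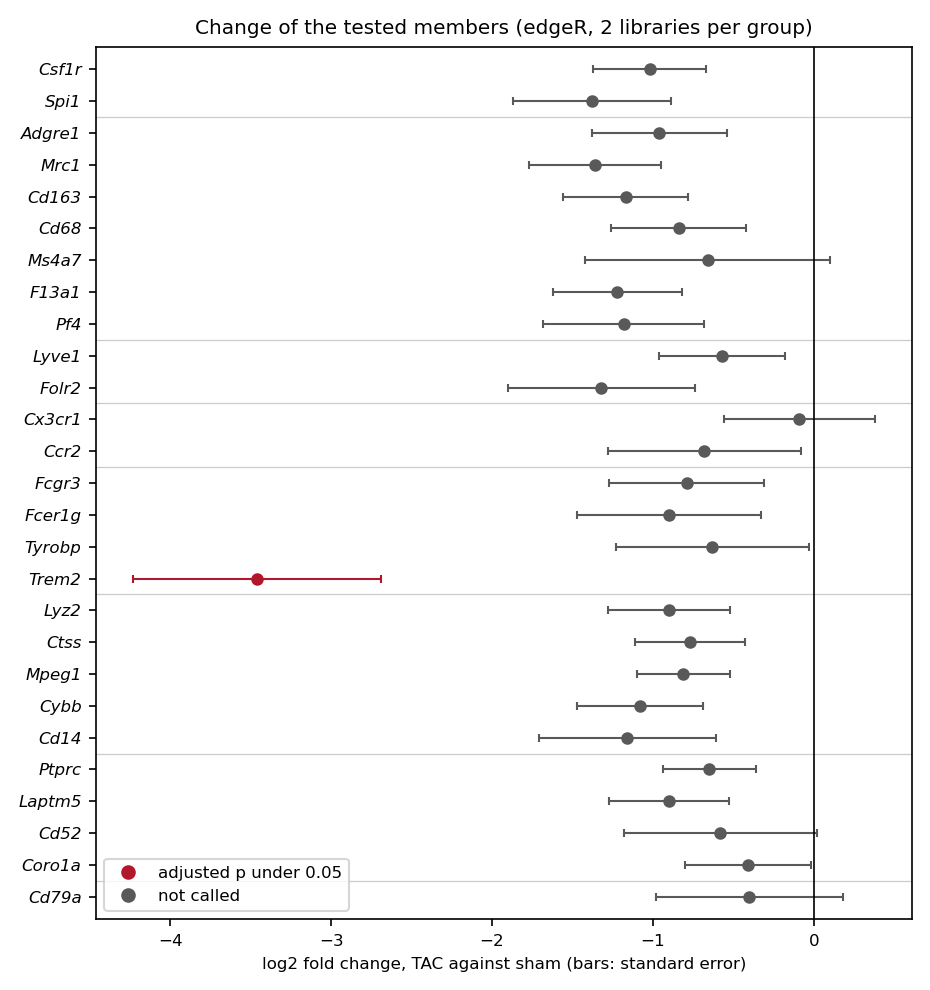
Log2 fold change of TAC against sham for the 27 tested members, with bars of 1 standard error from the edgeR fit. All points lie below 0, and only Trem2, at −3.46, passed the adjusted threshold.

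Lyz2, the lysozyme gene of myeloid cells, was the most abundant member, with a mean FPKM (a level per transcript length) of 19.5 over the 4 libraries. Csf1r followed at 4.01 FPKM, then Ctss at 2.9 and F13a1 at 2.89, and the lowest was Cd3e at 0.005. Lyz2 read 41.8 and 22.5 CPM in the sham libraries and 10.9 and 23.7 in the TAC libraries. TAC 2 was thus slightly above sham 2, and the log2 fold change of −0.90 ± 0.38 was not called (edgeR adjusted p = 0.172). The close relative Lyz1 had only 8 to 12 counts per library. Lyz2 made up 22% to 25.8% of the member counts in each library.

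Mpeg1, a pore-forming protein of phagocytes, was at 6.16 and 4.07 CPM in the sham libraries and 2.33 and 3.56 in the TAC libraries, with the groups apart (log2 fold change −0.81 ± 0.29, edgeR adjusted p = 0.129). Cybb encodes the catalytic subunit of the phagocyte NADPH oxidase and was also lower in both TAC libraries, at 4.8, 2.43, 1.33 and 2.13 CPM (log2 fold change −1.08 ± 0.39, edgeR adjusted p = 0.131). Groups overlapped for Ctss, a lysosomal cysteine protease, at 6.16, 3.41, 2.15 and 3.52 CPM. They overlapped too for Cd14, the lipopolysaccharide co-receptor, at 3.86, 1.42, 0.717 and 1.68 CPM. Aif1, the IBA1 gene, had 12, 5, 4 and 7 counts and was not tested. None of the 5 tested genes of this role was called by edgeR or DESeq2, while 3 were lower at an unadjusted p under 0.05 (14.0% of all tested genes).

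Genes shared by white blood cells had a median log2 fold change of −0.62 over 4 genes, and none was called by edgeR or DESeq2 (which gave Cd52 no adjusted p). Only Laptm5 was lower at an unadjusted p under 0.05 (14.0% of all tested genes). Ptprc, the CD45 phosphatase of all leukocytes, was at 5.21 and 3.09 CPM in the sham libraries and 2.47 and 2.82 in the TAC libraries (log2 fold change −0.65 ± 0.29, edgeR adjusted p = 0.19). Laptm5, a lysosomal membrane protein of blood cells, was at 6.7, 3.54, 2.01 and 3.52 CPM (log2 fold change −0.90 ± 0.37, edgeR adjusted p = 0.165). The sham 2 and TAC 2 values of both genes were close. Coro1a, an actin regulator of leukocytes, was at 2.69, 1.32, 1.4 and 1.64 CPM. Cd52, a small surface glycoprotein of leukocytes, was at 0.411, 0.521, 0.179 and 0.45 CPM. Both had overlapping groups, and Coro1a had a log2 fold change of 0.20 without sham 1.

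The genes of lymphocytes and granulocytes were at or near the limit of detection. Cd3e, a subunit of the T cell receptor complex, had 1 count in sham 2 and 0 in the other libraries. S100a8 had 0, 3, 3 and 2 counts and its partner S100a9 had 0, 4, 1 and 0, in the order sham 1, sham 2, TAC 1 and TAC 2. These encode the calprotectin subunits abundant in neutrophils. Cd79a, part of the B cell receptor, was tested, at 0.316, 0.452, 0.215 and 0.368 CPM with overlapping groups (log2 fold change −0.40, edgeR adjusted p = 0.684). Sham 1, the highest library for most macrophage genes, was highest for none of these 4 genes. Cd3e, S100a8 and S100a9 were not tested.

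Members differed within each group as well as between the groups. The median ratio of sham 1 to sham 2 over the 27 tested members was 1.97, and that of TAC 2 to TAC 1 was 1.8. Sham 2 and TAC 2, which belong to different groups, had a median ratio of 1.01, with sham 2 the higher in 15 members and TAC 2 in 12. Between the outer libraries, sham 1 and TAC 1, the median ratio was 3.71. Over all tested genes with a count in every library, each of these medians lay between −0.01 and 0.01 on the log2 scale. The differences within a group were thus of a size with the difference between the group means.

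**Figure D3:**
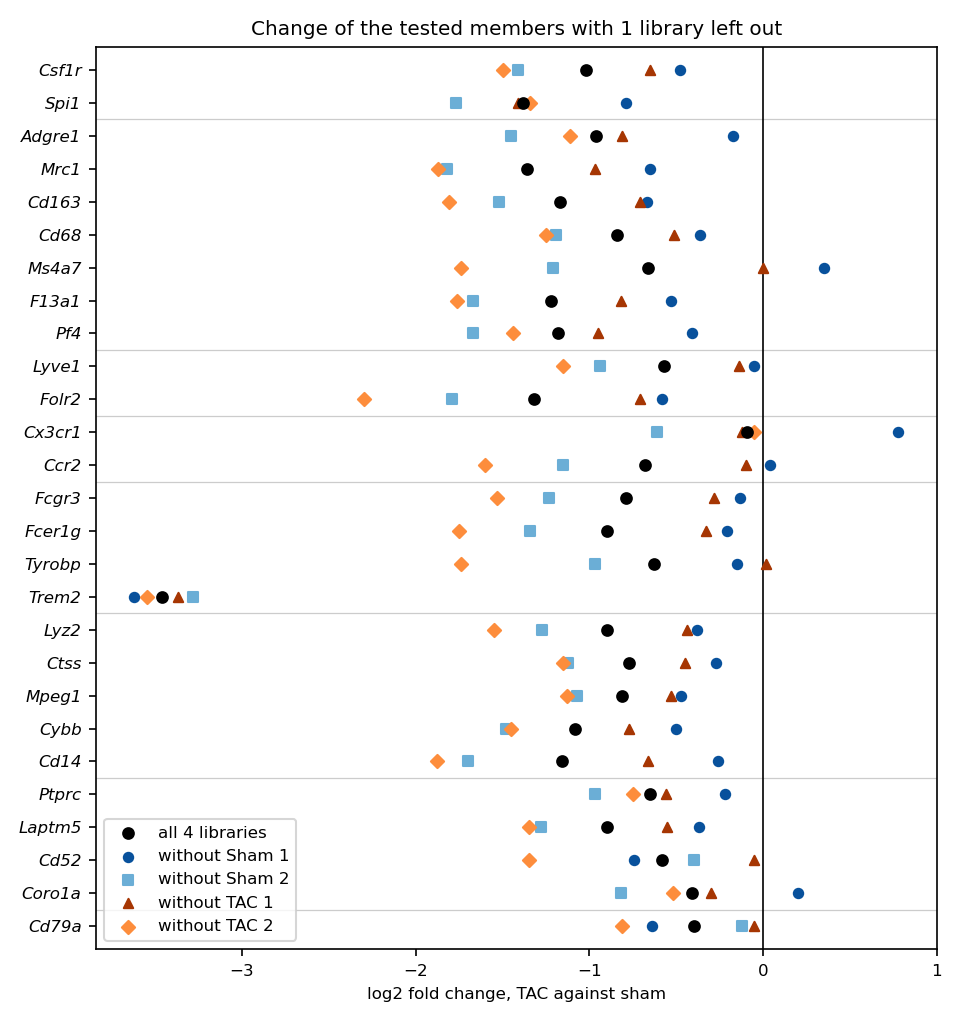
Log2 fold change of each tested member from all 4 libraries and after leaving out 1 library. Points without sham 1 or TAC 1 lie nearer 0 for most members, while those without sham 2 or TAC 2 lie further below it.

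Leaving out libraries moved the median log2 fold change of the 27 members that were tested with all 4 libraries. It was −0.37 without sham 1, −0.53 without TAC 1, −1.27 without sham 2 and −1.45 without TAC 2. In each of these fits 1 group had a single library, which was assumed to vary like the libraries of the other group. By the same edgeR test, 0 members were called lower without either sham 1 or TAC 1, 9 without sham 2 and 5 without TAC 2. Calls lower over all genes moved as well, from 304 to 300 without sham 1, 118 without TAC 1, 456 without sham 2 and 776 without TAC 2. Of the 27 members tested without sham 1, 23 still had a log2 fold change below 0, and Cx3cr1, Ccr2, Coro1a and Ms4a7 did not. Mrc1 ran from −1.87 to −0.65 and Csf1r from −1.50 to −0.48 over these fits. Trem2, with 1 count in each TAC library, ran from −3.62 to −3.28 and was called in none of these 4 fits.

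The genes and roles were also expressed as shares of the member counts of a library. Csf1r took 10.8% to 11.5% of the member counts in each library and the lysosomal, microbicidal and sensing genes 34.8% to 37.9%. The identity and scavenger receptors took 33.4% and 30.2% in the sham libraries and 27.6% and 27.4% in the TAC libraries. Pan-leukocyte genes took 12.2% in TAC 1 (95% Wilson interval 10.6% to 14%) and 8.25% to 9.16% in the other libraries. Chemokine receptors ran from 1.5% to 3.35%, lymphocyte and granulocyte genes from 0.174% to 0.786% and Trem2 from 0.0445% to 0.562%. Differences in these shares between the groups were not tested.

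A wider list of 50 macrophage and myeloid genes was set beside the members. Of its 45 tested genes, 44 had a log2 fold change below 0. The quasi-likelihood test called 1 lower, where 2.43% of all tested genes were. DESeq2 called 4 lower (Ctsc, Itgam, Lyn and Maf) and the exact test of edgeR 8, against 477 and 939 over all genes. These tests called 0 higher. At an unadjusted p under 0.05, 20 were lower, against 14.0% of all tested genes, and 0 higher. The median log2 fold change was −0.76. The gene called by the quasi-likelihood test was Lyn, a Src-family kinase of haematopoietic cells that other cells also use. Lyn read 10.8 and 8.9 CPM in the sham libraries and 5.85 and 5.85 in the TAC libraries (log2 fold change −0.76 ± 0.16, edgeR adjusted p = 0.0423). Maf, a transcription factor of resident macrophages, was at 7.05, 4.66, 1.87 and 3.23 CPM (edgeR adjusted p = 0.0672). Lgmn, a lysosomal protease with the highest level of the list, had a log2 fold change of −0.10 ± 0.11, and Syk, a kinase downstream of ITAM adaptors, 0.22 ± 0.10. Sham 1 was highest in 41 of the 45 and TAC 1 lowest in 39.

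Of 23 ligands and chemoattractants for macrophages, 14 were tested, and 13 of these had a log2 fold change below 0 (median −0.69). The quasi-likelihood test called 1 in each direction, against 2.43% lower and 2.58% higher of all tested genes. At an unadjusted p under 0.05, 5 were lower and 1 higher, against 1754 and 1684 of all 12499 tested genes. Mfge8, a bridging protein for the uptake of dying cells, was higher in TAC, at 89.2 and 81.9 CPM in the sham libraries and 120 and 124 in the TAC libraries (log2 fold change 0.51 ± 0.08, edgeR adjusted p = 0.0175). Cxcl12, a chemokine that holds leukocytes in tissue, was lower, at 106, 83.9, 40.3 and 61.5 CPM (log2 fold change −0.90 ± 0.19, edgeR adjusted p = 0.0454). DESeq2 called Mfge8 but not Cxcl12, and also Ccl2, Cx3cl1 and Igf1. Gas6, a ligand of the receptor MERTK, had a log2 fold change of −0.16 ± 0.08. Csf1, Il34 and Ccl2 were singled out after their values had been seen, as ligands of CSF1R (Csf1 and Il34) and CCR2 (Ccl2). Il34 was lower in both TAC libraries, at 0.79, 1.11, 0.179 and 0.532 CPM (log2 fold change −1.43 ± 0.56, edgeR adjusted p = 0.154). Csf1 stood at 52.7, 32.8, 39.5 and 45.5 CPM (log2 fold change −0.01, edgeR adjusted p = 0.979) and Ccl2 at 2.94, 0.799, 0.287 and 0.532 CPM (log2 fold change −2.21, edgeR adjusted p = 0.0961). Csf1, like Cx3cr1, had both TAC libraries between the sham libraries.

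Other white blood cells were covered by 3 further lists. Of 14 monocyte and dendritic cell genes 6 were tested and 1 was called lower, where 2.43% of all tested genes were. This was the angiotensin-converting enzyme gene Ace, which endothelial cells also express, at 21.6, 17.5, 10.6 and 13 CPM (log2 fold change −0.73 ± 0.15, edgeR adjusted p = 0.0407). The list summed to 70.1, 45.1, 39.6 and 35.7 CPM, and its highest gene was Nr4a1, an immediate early gene that marks patrolling monocytes but is not particular to them, at 32.1, 14.1, 18.8 and 9.2 CPM (log2 fold change −0.72 ± 0.41, edgeR adjusted p = 0.299). Ly6c2, named after its values were seen, had no count in any library. Only 4 of 22 lymphocyte genes and 4 of 16 granulocyte and mast cell genes passed the filter. None was called by edgeR or DESeq2, and 1 (Ighm) was lower at an unadjusted p under 0.05 (14.0% of all tested genes). The highest of them was Ighm, the immunoglobulin mu heavy chain, at 3.63, 2.61, 1.4 and 2.17 CPM. Defining neutrophil genes (Ly6g, Camp, Elane and Mpo, likewise picked for their counts) were at 0 counts in all 4 libraries. Other genes of that list had a few counts, such as Ltf (0, 0, 3 and 3), Retnlg (0, 0, 0 and 2), Ngp (0, 4, 1 and 0) and Cxcr2 (1, 0, 1 and 1). Csf3r, the receptor for the granulocyte growth factor, had 12, 14, 5 and 20 counts, and Mmp9, a matrix protease of neutrophils and other cells, had 17, 15, 7 and 9. The lymphocyte list summed to 6.64, 6.12, 3.08 and 5.11 CPM and the granulocyte and mast cell list to 2.81, 2.5, 1.4 and 2.29 CPM. In both lists sham 1 was highest and TAC 1 lowest, as for the members, which summed to 49.7 to 182 CPM per library.

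Genes of other cells in the heart were summed in the same way. Over all tested genes, to set beside each list here, the quasi-likelihood test called 2.43% lower, and DESeq2 and the exact test of edgeR called 477 and 939 genes lower. Of 15 endothelial genes all had a log2 fold change below 0 and 5 were called lower by the quasi-likelihood test (9 were called by DESeq2 and 12 by the exact test). Their summed levels were 853 and 730 CPM in the sham libraries and 422 and 570 in the TAC libraries. Of 15 fibroblast genes all were below 0 and 4 were called lower (5 by DESeq2 and 10 by the exact test), with 604, 422, 242 and 335 CPM. For both lists the TAC libraries lay below the sham libraries, with sham 1 highest and TAC 1 lowest. Of 12 mural genes 11 were below 0 (median −0.78) and 2 were called lower (DESeq2 called 4 and the exact test 7, both including Des, which was higher). Their sum had a TAC to sham ratio of 1.08. Its largest genes were Des, at 1490, 1590, 1980 and 2010 CPM, and Abcc9, at 380, 406, 279 and 303 CPM. Des alone was most of that sum, so the ratio does not describe the other mural genes. Red blood cell genes showed no such order, at 84.9, 73.8, 49.9 and 125 CPM. The 15 cardiomyocyte genes went both ways, with 6 below 0 and 9 above. Of these the quasi-likelihood test called 1 (Tcap) lower and DESeq2 called 6, so a level sum does not mean that each gene was level.

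The ratio of summed TAC to sham CPM was 0.516 for the members and 0.755 for the wider macrophage and myeloid list. It was 0.627 for endothelial, 0.562 for fibroblast and 1.01 for cardiomyocyte genes. The wider macrophage list summed to 339, 229, 180 and 248 CPM, with TAC 2 above sham 2. Sham 2 and TAC 2 were nearly level for the members, at 92.8 and 91.9 CPM, but stood at 730 and 570 CPM for the endothelial and 422 and 335 CPM for the fibroblast genes. The difference between lists was not tested. Immediate early genes, which respond within minutes to stress, including the handling of cells, summed to 1340, 828, 459 and 414 CPM. The quasi-likelihood test called 11 of the 21 tested lower, against 2.43% of all tested genes. The part of these other cell types, or of cell isolation, in the member levels was not tested.

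**Figure D4:**
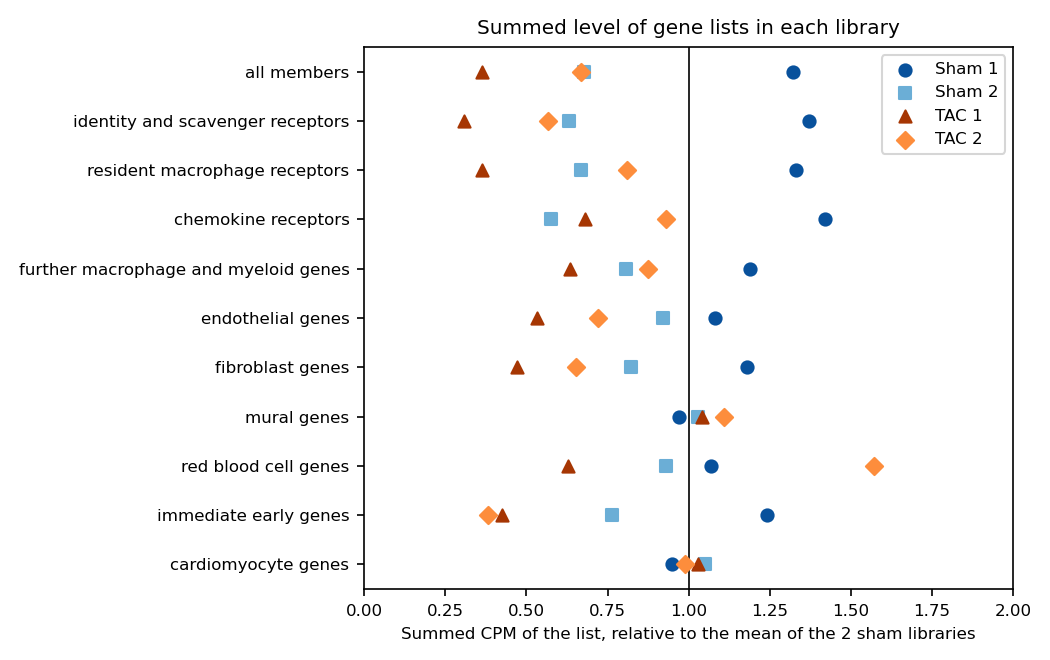
Summed CPM of gene lists in each library relative to the mean of the 2 sham libraries, which is set at 1. The members in sham 2 (0.676) and TAC 2 (0.669) coincide, while endothelial and fibroblast sums are lower in both TAC libraries and cardiomyocyte sums stay between 0.948 and 1.05.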

How the data were processed

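Groups and replicate numbers came from the sample titles. The authors deposited, for every gene in each library, an expected count (a fragment number estimated by their counting program) and FPKM. The submitters' processing notes name Bowtie2 2.2.8, StringTie 1.3.1 and mm10, without their roles. The sources used here do not say how strand, annotation and counting were handled. In each library, 1432 to 1519 genes held fractional counts. The totals ran from 24237777 to 32118323 counts.

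Counts were rounded and analysed in R 4.3.3 with edgeR 4.0.16: filterByExpr, TMM factors of 1.1 (sham 1), 1.04 (sham 2), 0.868 (TAC 1) and 1.01 (TAC 2), glmQLFit without a block, and glmQLFTest. Benjamini-Hochberg adjustment ran over 12499 genes, and those under 0.05 were called. The SE is the size of the log2 fold change over the square root of F. The common biological coefficient of variation was 10.5%. CPM used the TMM-scaled sizes. No library was a copy of another (chi-square per degree of freedom over genes 8.08 between the sham and 26.7 between the TAC libraries). Alternatives were DESeq2 1.42.0, total-count scaling, no filter, the exact test of edgeR, replicate blocks, each library left out, other thresholds and the deposited FPKM.

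The members and gene lists were chosen with earlier results of these data known. All members were named, and of other lists the 2 genes with the highest mean CPM and the 2 with the lowest adjusted p were eligible; other genes named were picked after their values were seen. Gene coordinates are from GENCODE M21 and promoters from RefSeq, both on GRCm38; gene symbols are those in the files.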

Additional observations from a re-analysis of the deposited data

How the results depend on the processing

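Over the alternatives, 219 of 270 member values kept their direction and, where an adjusted p was given, their side of the threshold, 38 passed the threshold where they had not, 5 (all Trem2) lost it, and 8 turned. The turned log2 fold changes were those of Cx3cr1 (0.03 with the replicate block, 0.01 with the crossed block, 0.78 without sham 1), Ccr2 (0.04), Coro1a (0.20) and Ms4a7 (0.35) without sham 1, and Tyrobp (0.02) and Ms4a7 (0.00) without TAC 1. With 1 library left out, Cx3cr1 ran from −0.61 to 0.78, Ccr2 from −1.60 to 0.04, Coro1a from −0.82 to 0.20, Ms4a7 from −1.74 to 0.35 and Tyrobp from −1.74 to 0.02. No member was called higher under any alternative. The median over the tested members stayed below 0 throughout, at −1.45 to −0.37 with 1 library left out and −1.02 from the deposited FPKM. Total-count scaling moved the median of all tested genes to −0.20 and that of the members to −1.07. DESeq2 gave no adjusted p for 8 members, Trem2 among them. The causes of these changes were not tested.

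Members called lower numbered 9 without the filter, 5 by the exact test of edgeR, 0 at an adjusted p under 0.01 and 2 under 0.1, and 0 to 9 with 1 library left out. The wider macrophage list had 4 called lower by DESeq2, 12 without the filter, 8 by the exact test, 0 under 0.01, 5 under 0.1 and 0 to 13 with 1 library left out. Over all genes, calls lower and higher numbered 477 and 444 by DESeq2, 426 and 105 by total-count scaling, 969 and 707 without the filter, 939 and 712 by the exact test, 22 and 70 under 0.01 and 939 and 878 under 0.1. With 1 library left out they ran from 118 to 776 lower and from 183 to 560 higher, both lowest without TAC 1 and highest without TAC 2.

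Same-numbered sham and TAC libraries deviated in opposite directions (correlation −0.242), and although the methods speak of pairs of sham and TAC mice, no source says which libraries form a pair. With the replicate block, 0 members were called lower against 1 without it, and the adjusted p of Trem2 was 0.0985. A crossed block, chosen after seeing the data, called 12 members, 17 genes of the wider list and, over all genes, 1163 lower and 968 higher. Its values are among the member values counted above.

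Member counts were low, with 1386 in all in TAC 1, and Cd3e, S100a8 and S100a9 had at most 4 counts in a library, which limits any statement on lymphocytes and neutrophils. Each group has 2 hearts, so 1 library sets much of each group mean.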
